A study of Mus musculus with 4 samples.

Results

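Bmp3, Bmp6 and Gdf6 encode secreted ligands of the BMP and GDF family, and the H3K27me3 peaks that lay in these genes are described here. The 3 genes were chosen by their listed peaks, with earlier results of these data known, so their having peaks is not a finding. All peaks in the annotated gene or within 2000 bp of it were taken, which gave 6 peaks of the irradiated list and 2 of the control list. The 3 genes stand among 21896 protein-coding genes, and their peaks among 16091 irradiated and 9866 control peaks.

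The series profiled H3K27me3 in cultured cells of the mouse glioblastoma line GL261, by sequencing the DNA that an antibody against the mark pulled down (ChIP-seq). The irradiated group (labelled IR, taken as irradiated since the series' title speaks of radiation treatment) held 1 H3K27me3 library and 1 input library, DNA without immunoprecipitation, and the control group (labelled Con) likewise held 1 of each. All 4 libraries came from the same line in the same medium, with serum and glutamine, and no allele or transgene is named; the sources used here give neither the dose of radiation nor the time between radiation and fixation. With 1 library per group there was no replicate, so no test between conditions was made, every interval covers counting error only, and peak lists of a single line hold no expression against which its label could be checked.

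Ligands of this family bind pairs of serine and threonine kinase receptors, which phosphorylate Smad proteins that then enter the nucleus and switch on targets such as the Id genes. Secreted antagonists such as noggin hold the ligands back. In the brain, BMP signals turn neural precursors toward astrocytes, and genes of such developmental ligands are typical places for Polycomb repression. The Polycomb repressive complex that contains EZH2 writes H3K27me3, as a rule in broad domains over CpG-rich starts of silent genes.

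Bmp6, the ligand that sets hepcidin production in the liver and so the iron supply of the body, is the only one of the 3 genes with an entry in the RefSeq promoter table used here (GRCm38.p6, the assembly of mm10). The 250 bases before its start, chr13:38345466-38345715 on the plus strand, are shown because the distances of the Bmp6 peaks are counted from there and no peak lay on them. Capitals mark each CpG, the letters CG, which read the same on both strands.
Bmp6 promoter: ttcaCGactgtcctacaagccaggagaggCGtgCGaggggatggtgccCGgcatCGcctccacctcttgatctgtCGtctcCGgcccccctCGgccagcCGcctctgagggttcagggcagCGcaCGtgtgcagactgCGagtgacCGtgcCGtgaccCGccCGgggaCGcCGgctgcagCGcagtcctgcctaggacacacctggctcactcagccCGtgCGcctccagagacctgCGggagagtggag
The stretch held 22 CpG and 68.8% G and C, against a median of 6 CpG and 52.4% over the 32851 promoters of the table, of which 14.8% had at least as many CpG. The nearest irradiated peak began 50131 bp beyond the start of the gene, and the nearest control peak ended 89439 bp before it. Peaks at starts were few in general, since 0.484% of promoter windows (250 bp before to 50 bp after a start) overlapped an irradiated peak and 0.283% a control peak.

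In every one of the 8 member peaks the deposited values rested on few reads. The deposited fold compares the summit with a background estimated by the authors' caller, the deposited q is the p of the peak adjusted over the genome, and both were set in each list separately. The number of ChIP reads at each summit was recovered from the fold and p. The 6 irradiated peaks had folds of 3.51 to 4.81 on 9 to 13 reads, and the 2 control peaks folds of 2.67 and 3.11 on 7 and 8 reads. Few reads were common in both whole lists, with a median of 11 (quartiles 10 and 13) in irradiated and 10 (quartiles 8 and 11) in control cells. Over whole lists the median fold was 3.67 (quartiles 3.19 and 4.16) in irradiated cells and 3.43 (quartiles 3.02 and 3.75) in control cells. Thus 4 of the 6 irradiated member peaks lay above the median of their list, and neither of the control ones did. A q of at most 0.05 was reached by 1 member peak, in irradiated Bmp6, and by 15.2% of all irradiated and 6.84% of all control peaks. Such a peak was held by 2.08% of all genes in the irradiated and 0.516% in the control list, and one with a −log10 p of at least 5, as in irradiated Bmp3 and Bmp6, by 3.27% and 0.859%.

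**Figure D1:**
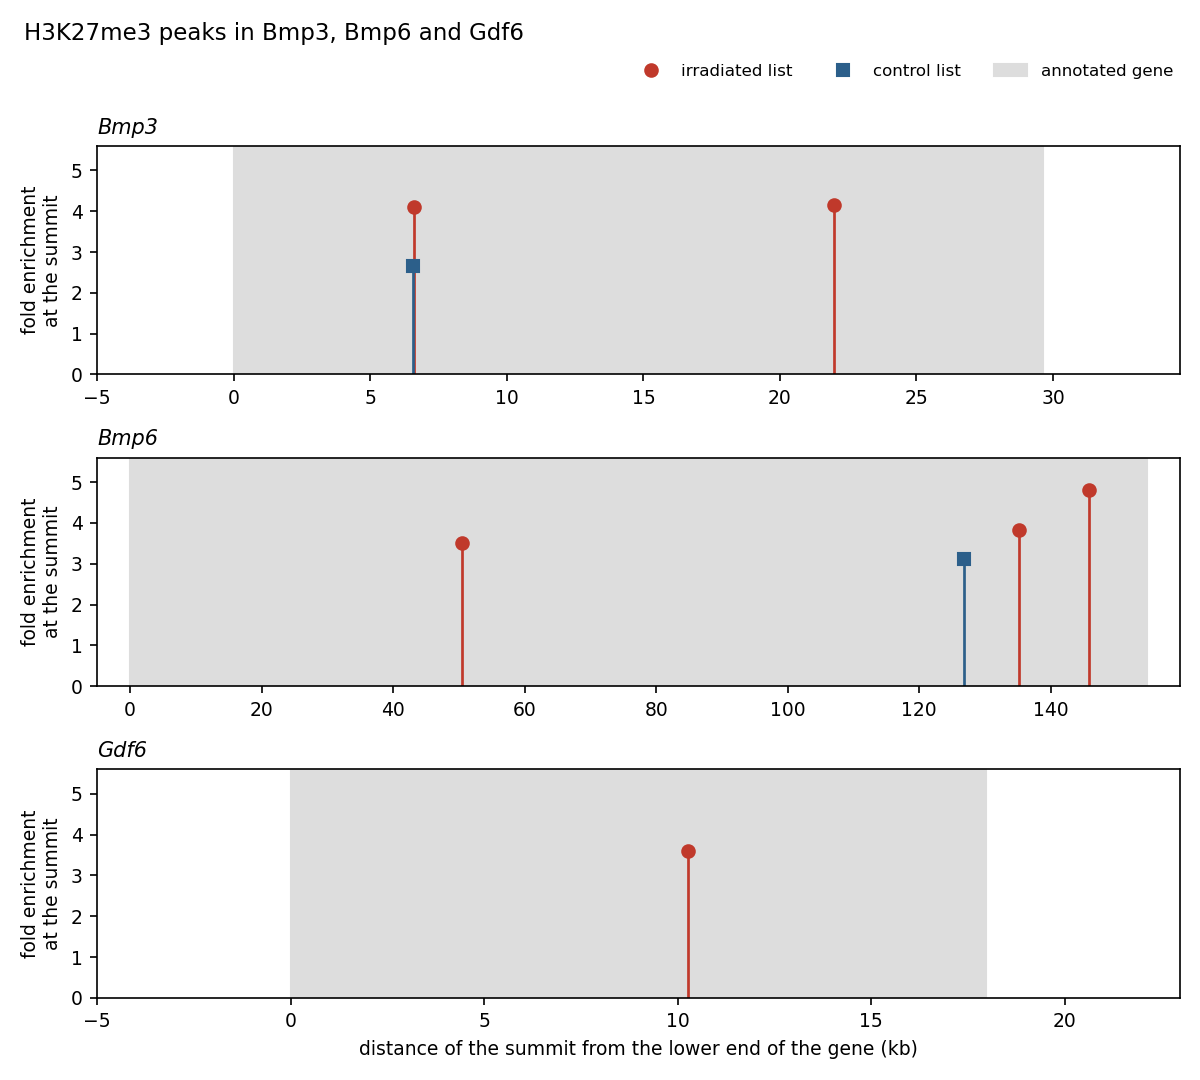
Peaks in the 3 genes. Each marker is the summit of a peak, placed by its distance in kb from the lower coordinate of the gene (for Bmp6 the start of transcription) and by the authors' fold enrichment; red circles are the irradiated list, blue squares the control list and grey the annotated gene. The lists meet at 1 site, at 6.59 and 6.56 kb in Bmp3, and Gdf6 holds no control marker.

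Bmp6 (chr13:38345716-38500314, 154.6 kb) held the strongest member peak and the most peaks, 3 in the irradiated list and 1 in the control list. The first irradiated peak, at chr13:38395847-38396310, had its summit 50.5 kb from the start and a fold of 3.51 on 9 reads (exact Poisson 95% interval 4.12 to 17.1), with a q of 0.537. The second, at chr13:38480729-38481218, rested on 12 reads (6.20 to 21.0), with a q of 0.149 and a fold of 3.82. The third, at chr13:38491418-38491787, had a fold of 4.81 on 13 reads (6.92 to 22.2) and a q of 0.0119. The intervals of the 3 read counts overlapped widely, so no trend of the folds along the gene is read from them. The last 2 summits lay at 87.4% and 94.4% of the length of the gene. The control peak, at chr13:38472450-38472733, had a fold of 3.11 on 8 reads (3.45 to 15.8) and a q of 1, with its summit at 82.0% of the length.

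None of the 4 Bmp6 peaks overlapped a peak of the other list. The share of all peaks that overlap the other list was not counted. Nothing is therefore read from overlap, or its lack, in this or any other gene named here. The control peak and the second irradiated peak were separated by 7.996 kb, and the third irradiated peak lay 18.7 kb and the first 76.1 kb from the control peak. The third irradiated peak was among the strongest 10.3% of its list, and the second among the strongest 45.6%. The first irradiated peak and the control peak stood low in their lists, with 81.3% of irradiated peaks and 86.2% of control peaks at least as strong. The background under the second irradiated peak was 1.42 times the lowest of its list, while the other Bmp6 peaks lay over the lowest background. Whether the raised background bears on the second peak was not tested.

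Bmp3 (chr5:98854415-98884053, 29.6 kb), an atypical member of the family that opposes other BMPs in bone, held 2 irradiated peaks and 1 control peak. The first irradiated peak, at chr5:98860759-98861040, had a fold of 4.10 on 13 reads (6.92 to 22.2) and a q of 0.0536. The second, at chr5:98876096-98876533, had a fold of 4.16 on 11 reads (5.49 to 19.7) and the same q. The control peak, at chr5:98860889-98861251, had a fold of 2.67 on 7 reads (2.81 to 14.4) and a q of 1. Both irradiated peaks thus stood in the upper part of their list, with 29.3% and 27.4% of its peaks at least as strong. The control peak stood near the lower limit of its list, where 95.9% were at least as strong.

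The site 6.6 kb into Bmp3 was the only one of the 3 genes where the lists overlapped. The overlap measured 152 bp, which is 53.9% of the irradiated and 41.9% of the control peak, and the summits were 32 bp apart. The irradiated fold there was 1.54 times the control fold. Under the model used to recover reads, each fold has a pseudocount of 1 in summit and background. A ChIP read counted 0.554 in the irradiated and 0.620 in the control list, so folds are not on 1 scale between lists. An average number of reads per position was derived from the lowest background of each list. It assumes that this background is the genome-wide average, which was not checked. The average was 1.27 in the irradiated and 1.48 in the control library. Set against it, the site had 10.2 times the average in irradiated and 4.73 times in control cells. The ratio of these was 2.16, with a 95% counting interval of 0.802 to 6.40 (exact binomial). It describes these 2 libraries at a site picked because both lists have a peak there, and is no test between the conditions. The recovered background at the site was 1.00 in both lists, in the scaled units of each. This was 1.42 times the lowest of the irradiated list (0.704) and 1.09 times that of the control list (0.918). The 2 ratios thus differ through the lowest values and not through the background at the site. The part of the background in the overlap was not tested. The second irradiated peak of Bmp3 lay 14.8 kb from the nearest control peak and within 2000 bp of Gm42123, an annotated long noncoding RNA gene (chr5:98878302-98891020) that overlaps the upper end of Bmp3.

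Gdf6 (chr4:9844372-9862345, 18.0 kb), a ligand of joint, skull and eye development, held 1 irradiated peak and no control peak. The irradiated peak, at chr4:9854111-9854767, was the widest of the 8 at 657 bp, and 9.92% of irradiated peaks were at least as wide. It had a fold of 3.61 on 10 reads (4.80 to 18.4), a q of 0.188 and a background 1.15 times the lowest, and 59.6% of its list was at least as strong. Relative to the library average, derived from the lowest background as for Bmp3, these reads were 7.87 times as many. At the lowest background a peak needed at least 7 reads in the control list, 4.73 times the average, and at least 8 in the irradiated list, 6.29 times the average. An enrichment below that limit in the control library would not be listed. The control peak nearest to Gdf6 lay 5.98 kb below the gene, outside the window of 2000 bp.

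**Figure D2:**
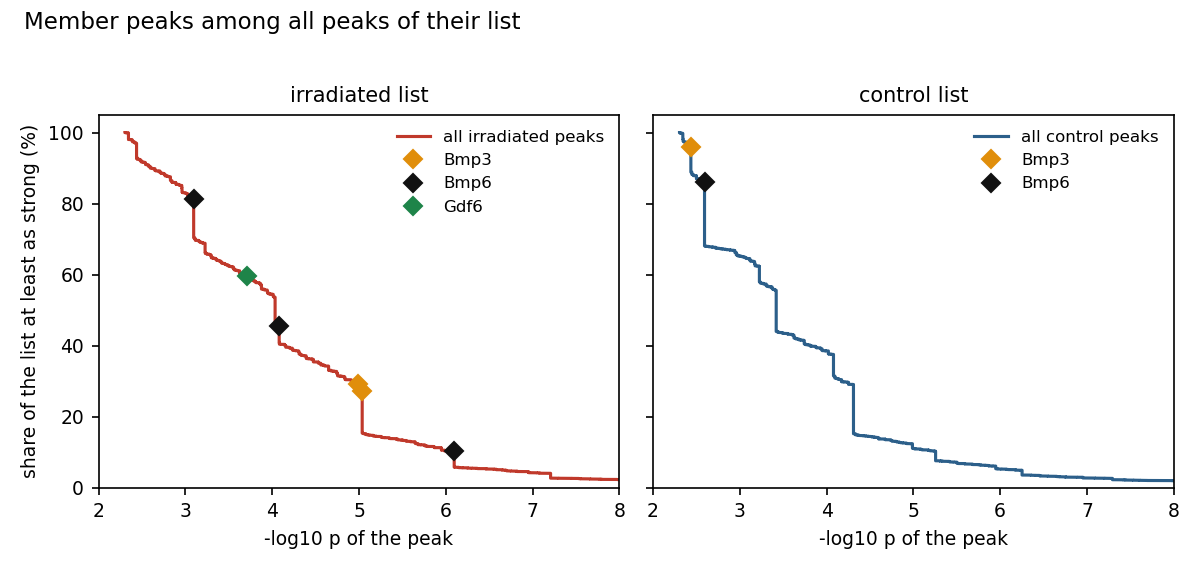
Strength of the member peaks within their own list, the irradiated list on the left and the control list on the right. The line gives, for each −log10 p (x axis, shown from 2 to 8), the percentage of the list that is at least as strong (y axis), and diamonds mark the member peaks. The strongest Bmp6 peak lies at 10.3% of the irradiated list, and the 2 control peaks lie at 86.2% and 95.9% of theirs.

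Read against all genes, the members' peaks were compared with the share of protein-coding genes that hold any peak, 8.19% in the irradiated and 6.05% in the control list. The irradiated list is the longer one. With only its 9866 strongest peaks, as many as the control list holds, the irradiated share was 5.84%, below the control share. The 3 genes then held 5 irradiated and 2 control peaks. Since the genes were listed for their peaks, nothing is read from 3 of 3 with an irradiated and 2 of 3 with a control peak. A peak in both lists, as in Bmp3 and Bmp6, was held by 3.67% of genes, and a peak in the irradiated list alone, as in Gdf6, by 4.53%. Long genes have more room for peaks. Among 4278 genes of 15 to 30 kb, the class of Bmp3 and Gdf6, 6.52% held an irradiated and 3.67% a control peak, 1.87% a peak in both lists as Bmp3 did, 4.65% one in the irradiated list alone as Gdf6 did, and 2.99% held at least 2 irradiated peaks as Bmp3 did. Among 1439 genes of 100 to 200 kb, the class of Bmp6, 18.1% held an irradiated and 16.8% a control peak, 11.1% a peak in both lists, and 9.1% held at least 3 irradiated peaks as Bmp6 did. The part of each gene, with its flanks, that the member peaks covered was also measured. The genes were chosen for their peaks and the covered share of the genome was not computed, so these parts are described only. In irradiated cells the covered part was 2.14% of Bmp3, 0.835% of Bmp6 and 2.99% of Gdf6. In control cells it was 1.08% of Bmp3 and 0.179% of Bmp6.

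Within 100 kb on either side the 3 genes differed in how many peaks surrounded them. Gdf6 had 7 irradiated and 7 control peaks in this range. Above the gene stood a group of 5 irradiated peaks, with summits 10.5 to 30.2 kb from the gene end and folds of 3.19 to 4.81, and 3 control peaks, with summits 24.8 to 30.0 kb from it and folds of 3.91 to 4.67. The strongest of each had 13 reads, with a q of 0.0119 at chr4:9884691-9885042 in the irradiated list and a q of 0.0157 at chr4:9886947-9887272 in the control list. So the peaks of lowest q near Gdf6 lay outside the gene in both lists. Bmp3 had 3 irradiated peaks and 1 control peak in the same range, and Bmp6 had 3 irradiated and 2 control peaks, all 3 irradiated ones inside the gene.

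**Figure D3:**
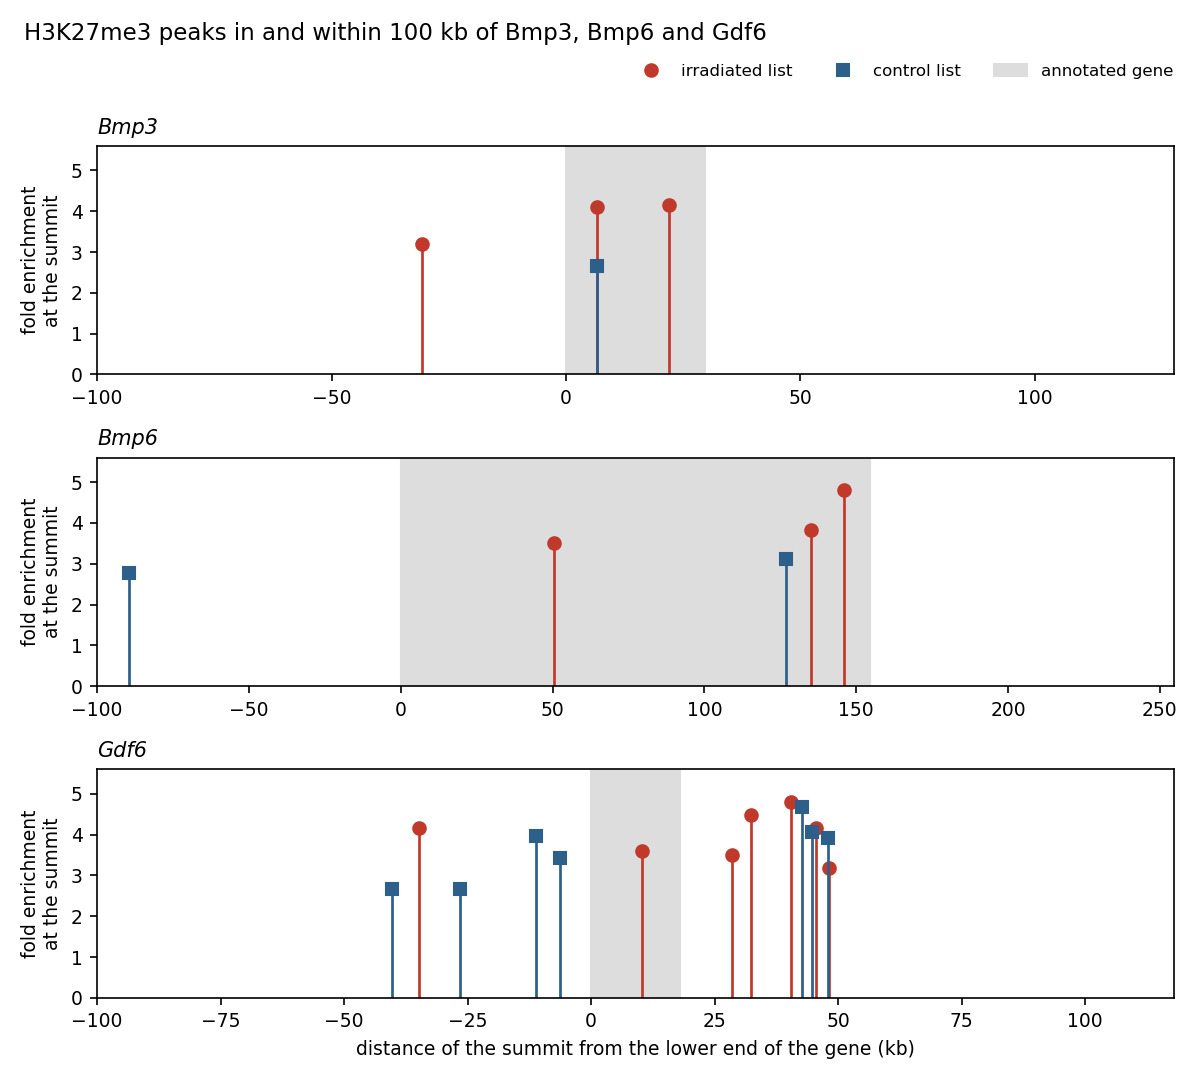
Peaks in the 3 genes and within 100 kb on either side, by distance of the summit from the lower coordinate of the gene in kb and by fold enrichment; red circles are the irradiated list, blue squares the control list and grey the annotated gene. Around Gdf6 each list has 7 peaks, most of them outside the gene, while the 3 irradiated Bmp6 peaks lie inside the gene.

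Peak density around the genes was counted over the gene and 1 Mb on either side. Around Bmp6 it was 5.11 per Mb (exact Poisson 95% interval 2.55 to 9.13) in the irradiated and 2.32 per Mb (0.753 to 5.42) in the control list. Densities of a chromosome or the genome are all its peaks divided by the span from the first to the last protein-coding gene of each chromosome. That span is shorter than the chromosome, so these densities are somewhat high. Chromosome 13 had 1.54 irradiated and 1.23 control peaks per Mb on this measure. The irradiated interval lay above the density of the chromosome over 1 Mb and over 0.5 Mb (6.06 per Mb, 2.44 to 12.5), but included it over 2 Mb, where the density fell to 2.89 per Mb (1.49 to 5.05); the control interval included it over all 3 distances. Of the 11 irradiated and 5 control peaks counted over 1 Mb, 3 and 1 are the member peaks themselves. Without the gene and its 2000 bp, the flanks had 4.01 irradiated (1.73 to 7.90) and 2.00 control (0.546 to 5.13) peaks per Mb. The counts over 0.5 and 2 Mb also hold the member peaks, by which Bmp6 was chosen. Flanks alone were counted only over 1 Mb, so nothing is read from the interval over 0.5 Mb. Peaks lay in groups, which these intervals do not take into account. Around Bmp3 the density was 3.45 per Mb (1.39 to 7.11) in the irradiated and 2.46 per Mb (0.80 to 5.75) in the control list, against 7.28 and 4.06 on chromosome 5. The irradiated interval lay below the density of the chromosome over 1 and 2 Mb and included it over 0.5 Mb (3.88 per Mb, 1.06 to 9.95). The control interval included it over 0.5 and 1 Mb and lay below it over 2 Mb (1.24 per Mb, 0.403 to 2.90). The Bmp3 flanks alone, over 1 Mb, had 2.51 irradiated (0.813 to 5.85) and 2.00 control (0.546 to 5.13) peaks per Mb. Around Gdf6 the density was 7.43 per Mb (4.16 to 12.3) in the irradiated and 8.92 per Mb (5.29 to 14.1) in the control list, against 6.90 and 3.69 on chromosome 4. The control interval lay above the density of the chromosome over 1 and 2 Mb and included it over 0.5 Mb (7.86 per Mb, 3.39 to 15.5). The irradiated interval included it over 0.5 and 1 Mb and lay above it over 2 Mb (10.95 per Mb, 7.96 to 14.7). The Gdf6 flanks alone, over 1 Mb, had 7.01 irradiated (3.83 to 11.8) and 9.02 control (5.34 to 14.3) peaks per Mb. For none of the 3 genes did the placing of both lists hold over all 3 distances. Of the protein-coding neighbours within 1 Mb, the irradiated and the control list each marked 1 of 12 at Bmp6, 0 of 6 at Bmp3 and 1 of 3 at Gdf6. Over all protein-coding genes the shares were 8.19% and 6.05%, and no difference between the 3 places is read from counts this small.

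**Figure D4:**
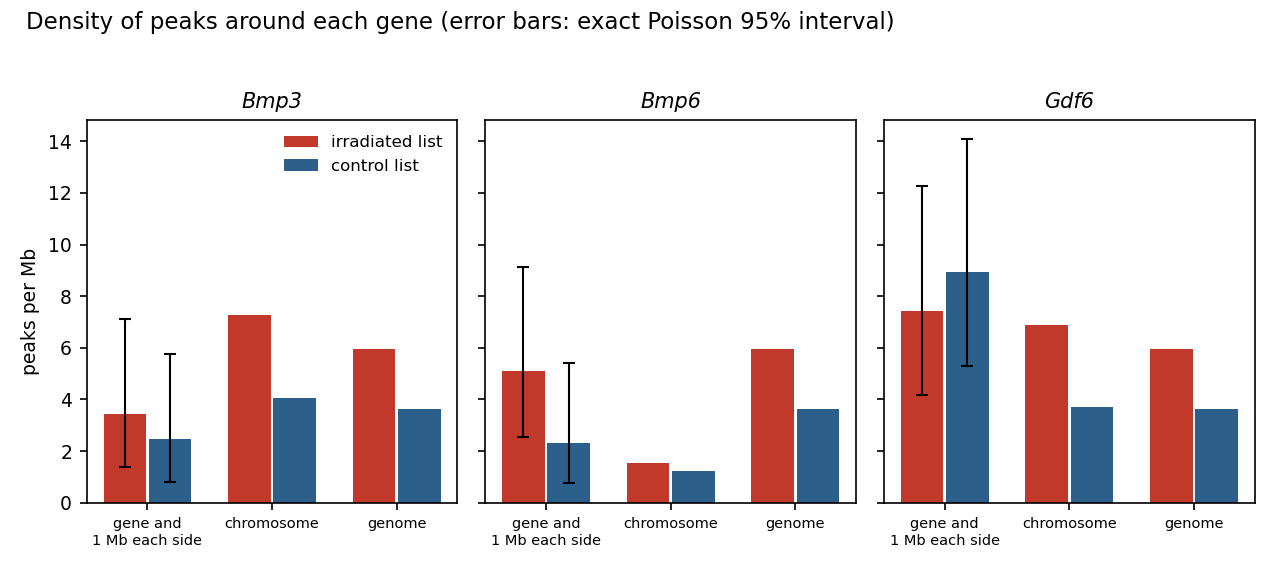
Peaks per Mb (y axis) over each gene and 1 Mb on either side, over its chromosome and over the genome. Chromosome and genome lengths are counted from the first to the last protein-coding gene of each chromosome. Red bars are the irradiated list and blue bars the control list. Error bars are exact Poisson 95% intervals of the counts around the gene. The Gdf6 surroundings have 7.43 irradiated and 8.92 control peaks per Mb, and the genome 5.96 and 3.65.

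Of the 21 ligand genes of the BMP and GDF family, 4 (19.0%) held an irradiated and 2 (9.52%) a control peak, against 8.19% and 6.05% of all genes. The list was written with earlier results of these data known and contains the 3 members, which make up all but 1 of these. Among the 18 other ligands, which included Bmp2, Bmp4, Bmp7, Gdf5 and Gdf11, the single marked gene was Bmp10, a ligand of the heart and blood vessels (chr6:87428994-87434512). Bmp10 held 3 irradiated peaks with folds of 3.55 to 3.84 on 10 or 11 reads, each with a q of 0.149, and no control peak. The other 17 held no peak in either list. The 21 ligands had a median length of 10.7 kb, against 17.1 kb over all genes. Of the wider superfamily, the Tgfb, inhibin, Nodal, Lefty and Amh ligands, 1 of 12 genes held an irradiated peak and 0 a control peak. That gene was Inhbc, an inhibin beta subunit of the liver, whose peak had a fold of 3.31 at a q of 0.40.

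Among 17 receptors and coreceptors, 1 held an irradiated and 2 a control peak. Tgfbr3, the coreceptor betaglycan (chr5:107106567-107289629), had 14 irradiated and 4 control peaks. It is 183.1 kb long, on a chromosome with 7.28 irradiated peaks per Mb against 5.96 over the genome. The share of genes of such length with as many peaks was not counted. The strength of its peaks varied. The strongest had a fold of 4.81 with a q of 0.0119 in irradiated and a fold of 3.75 with a q of 0.385 in control cells. Rgma, a coreceptor that also guides axons, had no irradiated peak and 1 control peak at a fold of 3.08, q being 1. Of 18 antagonists and modulators, Bmper, which encodes a secreted BMP-binding protein, was the 1 gene with an irradiated peak. Its 2 irradiated peaks had a highest fold of 4.16 with a q of 0.0536, and it had no control peak. None of the 8 Smad genes and none of 11 targets, Id1 to Id4 among them, held a peak in either list. In all, 7 of the 87 genes (8.05%) held an irradiated and 4 (4.60%) a control peak, beside 8.19% and 6.05% of all genes. For the 59 of the 87 genes with an entry in the promoter table, no peak of either list lay within 2000 bp of the promoter window, where 2.34% of all windows had an irradiated and 1.32% a control peak.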

How the data were processed

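Per the labels' protocols, GL261 cells were fixed with 1% formaldehyde, and chromatin of 300 to 500 bp was precipitated with an H3K27me3 antibody and sequenced in pairs of 150-bp reads. Per the submitters' processing notes, BWA, deepTools and the build mm10 were used. No peak caller, setting or role of the inputs is named in the sources used here. Per the deposited files, each library has a list of its own. Its deposited columns hold other values (positions in bp), a score equal to 10 times the −log10 p without decimals, a ratio that gives the fold at the summit, and per peak a −log10 p-value without and a −log10 q-value with genome-wide adjustment.

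Lines for further summits of a peak (679 irradiated, 215 control) were merged with it, keeping the strongest. ChIP reads and background were recovered from fold and p under a Poisson model with a pseudocount of 1, within 0.002 of the −log10 p for 100% of peaks; 0.715% of irradiated and 0.0203% of control peaks had more than 1 solution, none of them a member peak. The labels do not name a caller with this model. On simulated lists of 2392 irradiated and 2521 control peaks it returned the right values for 100%. These lists were made with the same model, so this checks the recovery only and not whether the model holds. Total reads per library are unknown, so the average per position was taken from the lowest background of each list. Peaks overlapped when sharing at least 1 bp. Genes came from RefSeq GRCm38.p6 without strand or exons, so exon and intron positions were not resolved, and all 87 pathway names matched. Members and gene lists were chosen with earlier results of these data known. Besides the members, up to 6 genes with a peak were named per pathway list, by lowest q. Alternatives were other windows, peak limits, merging, overlap and surroundings. Python 3.11.15, pandas 2.3.3, scipy 1.17.1 and matplotlib 3.10.9 were used.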

Additional observations from a re-analysis of the deposited data

How the results depend on the processing

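No direction was tested, as each group had 1 library; no library could be left out, and no paired analysis was possible because the groups share no 2 replicate numbers. Of 78 recomputed values, 60 were within 1.5 times the reported count or, for densities, within the interval of the reported one, and 18, under stricter peak limits or overlap, were not. Among the 60 there were still shifts. A window of 5000 bp gave 6 irradiated ligand genes in place of 4 and 10 irradiated pathway genes in place of 7. With 2 Mb of surroundings the density fell to 2.89 from 5.11 irradiated peaks per Mb at Bmp6 and to 1.24 from 2.46 control peaks per Mb at Bmp3. With 0.5 or 2 Mb, whether an interval included the chromosome's density changed in at least 1 list for each gene. With a q of at most 0.05, the 3 genes kept 1 irradiated and 0 control peaks, in 1 and 0 genes, the ligand list 1 and 0 genes, the 87 pathway genes 2 and 0, and no overlapping pair (0). With a −log10 p of at least 5, the 3 genes had 2 irradiated and 0 control peaks, 0 genes with a control peak, the ligand list 2 and 0 genes, the pathway genes 4 and 0, and the overlapping pairs came to 0; the Bmp3 irradiated peak at the shared site missed this limit with 4.99. At these limits 2.08% and 3.27% of all genes held an irradiated peak and 0.516% and 0.859% a control peak. With a reciprocal overlap of 50% the Bmp3 pair was lost (0 pairs). Member summits held 7 to 13 reads, and the 1 ratio between lists, at the shared Bmp3 site, had a counting interval of 0.802 to 6.40. The size of a detectable difference was not computed. With 1 library per group, a difference of any size between the conditions could not be tested.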
